A study of Mus musculus with 44 samples.

Results

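The TRB CDR3s described here began with CASSQ, the first 5 residues that the mouse germline segments Trbv2 and Trbv5 encode, and closed with the end of one of 12 Trbj genes. Of 72765 distinct TRB CDR3s read in 44 subcutaneous B16 tumours, 5304 met this rule. They made 7218 of 95913 entries of a TRB CDR3 in a tumour and held 1055332 of 6301600 TRB reads. B16 (labelled B16F10) is a mouse melanoma line, and the tumours grew in wild-type C57BL/6 mice (C57BL/6J in the methods) and were taken on day 12. The groups compared were 14 tumours labelled vehicle, 15 treated with an antibody to the checkpoint receptor PD-1 (anti-PD-1) and 15 treated with AC484, an orally given inhibitor of the phosphatases PTPN2 and PTPN1, to follow how the T cell repertoire responded to AC484. The methods describe the control mice as untreated, and the labels give neither age nor dose. Each tumour gave 1 library, collected from injected mice by the methods, and the labels do not tie libraries to mice, so p-values measure the spread between these samples.

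A T cell builds the β chain of its receptor by joining a V, a D and a J segment, and trims and adds bases at both joints. The CDR3 spans these joints, runs from the last conserved cysteine of the V segment to the phenylalanine of the J segment, and is the loop that most directly meets the peptide held by an MHC molecule. Its first residues are usually germline V sequence, its last residues germline J sequence, and the middle differs from clone to clone. Bulk TCR sequencing reads the transcripts of all T cells in a piece of tissue. Reads of a CDR3 reflect both the number of cells that carry it and the receptor mRNA in each of them, and these cannot be told apart here, since no molecular identifiers were counted.

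The germline ends of the segments are shown because they define the start class and its limits. The last 60 bases of each V segment in GRCm38 (mm10) are given 5′ to 3′ on the plus strand, from RefSeq, with the bases inside the CDR3 in capitals. Trbv2 ends at chr6:41047936-41047995, Trbv5 at chr6:41062744-41062803 and Trbv21 at chr6:41202985-41203044.
Trbv2: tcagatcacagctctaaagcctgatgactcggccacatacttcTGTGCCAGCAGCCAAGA
Trbv5: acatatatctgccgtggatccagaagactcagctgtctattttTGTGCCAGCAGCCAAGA
Trbv21: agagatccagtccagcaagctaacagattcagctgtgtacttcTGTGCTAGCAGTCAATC
Trbv2 and Trbv5 differed at 19 of these 60 bases but at 0 of the 17 bases inside the CDR3, so no CDR3 could tell them apart, with or without nucleotides. Trbv21 differed from Trbv2 at 4 of the 17 bases and yet encodes the same 5 residues. Of 22 annotated V segments these 3 encode CASSQ, and other segments can reach it through trimmed and added bases. After the glutamine codon Trbv2 and Trbv5 end in GA, the first 2 bases of a codon for aspartate (D) or glutamate (E), while Trbv21 ends in TC, which begins a serine codon. The D segments that follow are Trbd1 (chr6:41533201-41533212) and Trbd2 (chr6:41542163-41542176), which are read in 3 frames.
Trbd1: GGGACAGGGGGC
Trbd2: GGGACTGGGGGGGC

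Residue 6, the first after CASSQ, was D or E in 2862 of the 5304 distinct CDR3s (54.0%), the 2 residues that the untrimmed end of Trbv2 or Trbv5 allows. D stood there in 33.1% and E in 20.9%, and these were the most frequent residues at that position, followed by glycine with 14.9%, valine with 5.52%, threonine with 5.28% and alanine with 5.11%. Serine, the residue of an untrimmed Trbv21, stood there in 93 CDR3s (1.75%). By reads the order was different. Valine held 24.9% of the reads of the class, glutamate 22.5% and aspartate 17.2%. Of the 262727 reads with valine, 164981 belonged to 1 CDR3 in anti-PD-1 tumour 6, so this order by reads rested on that clone. D or E at residue 6 was found in 54.2% ± 8.29 (SD, n = 14) of the distinct CDR3s of a vehicle tumour, 54.6% ± 4.19 (n = 15) with anti-PD-1 and 52.9% ± 4.03 (n = 15) with AC484. The difference of AC484 from vehicle was -1.26 percentage points (95% interval -6.03 to 3.59), and none of the 3 differences passed the permutation test (adjusted p from 0.41 to 0.89).

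CASSQ CDR3s were long. Within a tumour their distinct CDR3s averaged 14.6 ± 0.153 residues and the other TRB CDR3s 14.0 ± 0.0594 (SD, n = 44 tumours). The difference of 0.53 residues had the same sign in 44 of 44 tumours (sign-flip permutation test over tumours, adjusted p = 7e-05). The rule of the class asks for the whole start, while other TRB CDR3s may keep less of their V segment. With the start lengthened to CASSQ followed by D or E, the difference was 0.683 residues. The part of the rule in the difference was not tested. Over all distinct CDR3s of the class the most frequent length was 15 residues (32.4%), against 14 residues (30.0%) for the other TRB CDR3s. The lengths ran from 10 to 22 residues, and 60.6% of the class had 15 or more. Neither treatment differed from vehicle in mean length beyond the spread between tumours (adjusted p = 0.17 for AC484 and 0.33 for anti-PD-1), with a difference of 0.11 residues for AC484 (95% interval -0.0066 to 0.23). With the class limited to CASSQ followed by D or E, that difference was 0.28 residues (adjusted p = 0.015).

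**Figure D1:**
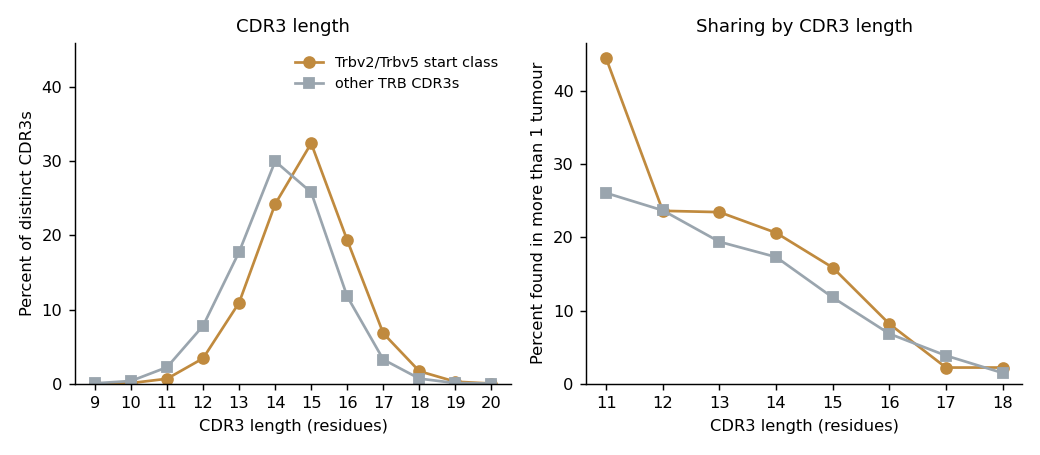
The left panel plots the percent of distinct CDR3s at each length in residues for the start class and for the other TRB CDR3s, and the right panel the percent at each length found in more than 1 tumour. The start class peaks at 15 residues (32.4%) and the other CDR3s at 14 (30.0%), and from 11 to 17 residues the share found in more than 1 tumour falls from 44.4% to 2.22% for the start class.

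Short CDR3s of the class were more often found repeatedly. A CDR3 of the class was found in more than 1 tumour in 831 of 5304 cases (15.7%), and the other TRB CDR3s in 15.2%. At 11 residues this held for 16 of 36 (44.4%), at 14 residues for 265 of 1285 (20.6%) and at 17 residues for 8 of 361 (2.22%). The same was seen by the number of residues left between CASSQ and the J ending. With 1 such residue 19 of 43 CDR3s (44.2%) were found in more than 1 tumour, with 2 residues 60 of 241 (24.9%) and with 3 or more 747 of 5012 (14.9%). The example that follows is shown because nothing but a germline V start and J ending can be seen in most of it.
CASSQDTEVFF
This CDR3 of 11 residues ends in Trbj1-1 and was read in 20 tumours, 3 vehicle, 7 anti-PD-1 and 10 AC484. It was nowhere large, with at most 0.115% of the TRB reads of a tumour. These are descriptions over CDR3s, which share tumours and are not independent.

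All 12 Trbj genes were joined to CASSQ. The most used was Trbj2-7 with 16.2% ± 3.79 of the distinct CDR3s of the class in a tumour (SD, n = 44), followed by Trbj2-1 with 13.6% ± 3.55, Trbj2-5 with 11.1% ± 3.61 and Trbj1-1 with 11.0% ± 3.37. Trbj1-5 was the least used, with 3.70% ± 2.39. Against the other TRB CDR3s of the same tumour, Trbj1-1 was used more (11.0% against 9.42%, higher in 31 of 44 tumours, adjusted p = 0.0055) and so was Trbj1-5 (3.70% against 2.53%, higher in 29 of 44, adjusted p = 0.0043), both by the sign-flip permutation test. Trbj2-2 was used less (4.98% against 6.26%, lower in 32 of 44, adjusted p = 0.0013), and so was Trbj2-5 (11.1% against 12.6%, lower in 31 of 44, adjusted p = 0.017). The other 8 Trbj genes did not pass. These shifts were small next to the spread between tumours, and once low counts were left out (those below 1% of the highest count that a CDR3 reached in any tumour), Trbj1-5 alone among the 12 passed.

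**Figure D2:**
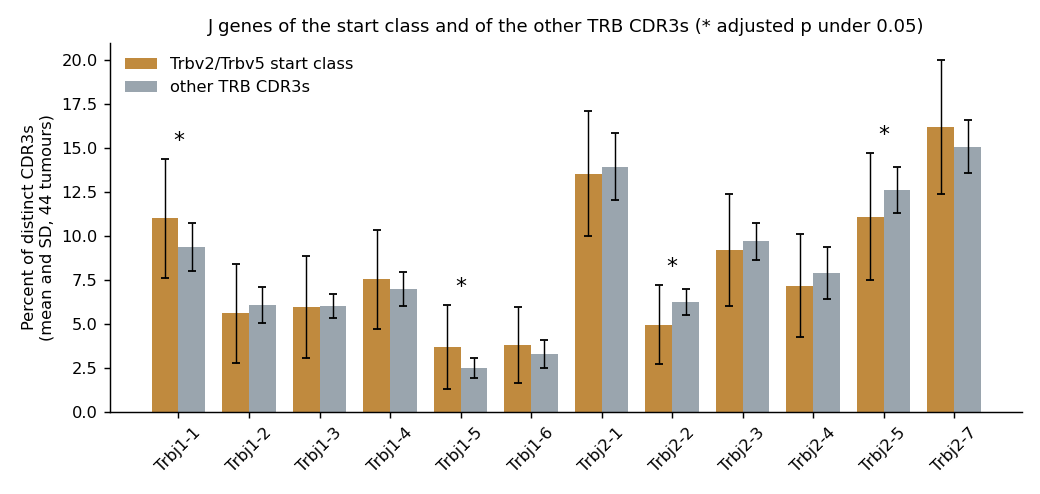
For each of the 12 Trbj genes the plot gives the percent of distinct CDR3s that end in it, as the mean and SD over 44 tumours, for the start class and for the other TRB CDR3s. Trbj1-1 and Trbj1-5 are higher and Trbj2-2 and Trbj2-5 lower in the start class (asterisks, adjusted p under 0.05), with SDs of 2.24 to 3.61 percentage points that span most of these differences.

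The residues that Trbd1 and Trbd2 encode were found with the J cluster each D segment can reach. Trbd1 lies before both clusters, and Trbd2 lies between them and normally joins only to Trbj2. The motif GLG, a frame of Trbd2, was in 4 of 1965 CASSQ CDR3s with a Trbj1 gene (0.204%) and in 154 of 3339 with a Trbj2 gene (4.61%). DWG, the other Trbd2 frame searched, was in 0.916% and 8.21%. GQG, a frame of Trbd1, was in 4.63% of those with Trbj1 and 2.01% of those with Trbj2, and DRG in 3.56% and 1.89%. In the other TRB CDR3s GLG was in 0.367% of those with Trbj1 and 3.89% of those with Trbj2, and DWG in 0.222% and 6.12%. DWG with Trbj1 was thus at a higher share in the class than in the others, a difference that was not tested. The search began at residue 6, where D can also come from the untrimmed end of Trbv2 or Trbv5. DWG and DRG right after CASSQ were thus not specific to a D segment, and the part of this was not tested. Within tumours GQG was somewhat more frequent in the class than in other TRB CDR3s (3.90% against 3.10%, adjusted p = 0.017 by the sign-flip permutation test) and GTGG, which both D segments can give, less frequent (1.16% against 1.73%, adjusted p = 0.0017). The search within tumours began at residue 5, which is glutamine throughout the class. Only the other TRB CDR3s could hold a motif from there. Searched from residue 6 over all distinct CDR3s, GTGG with Trbj1 was in 1.12% of the class and 1.10% of the others. With Trbj2 it was in 2.04% and 1.52%, differences that were not tested. The GQG difference turned to -0.0224 percentage points once low counts were left out, and to -1.95 for CASSQ followed by D or E.

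The start class ranked 4th by distinct CDR3s. CASSL had 10922, CASG 7499 and CASSP 5318, while CASSD had 4534. By reads the class held 16.8% of TRB reads with 7.53% of TRB entries, a ratio of 2.23. The ratio was 0.941 for CASSL, 1.01 for CASSP, 0.731 for CASSD and 0.384 for CASG. Other classes were above 1 too, such as CAST with 1.63, CASSI with 1.47 and CGAR with 1.45. The reads of CASSQ include 164981 of 1 clone in anti-PD-1 tumour 6. Within tumours the log2 of percent of reads over percent of distinct CDR3s was 0.77 ± 0.97 for CASSQ and -0.17 ± 0.24 for the other TRB CDR3s (SD, n = 44 tumours), a difference of 0.93 that was positive in 33 of 44 tumours (sign-flip permutation test, adjusted p = 7e-05). A share of 3.64% of CASSQ CDR3s held at least 1% of the TRB reads of their tumour, against 1.79% of the others, and this was higher in 39 of 44 tumours (adjusted p = 7e-05). With the class limited to CASSQ followed by D or E both differences kept their sign and neither passed (0.24, adjusted p = 0.45, and 1.62, adjusted p = 0.074).

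The share of CASSQ was higher among larger clones. When the TRB CDR3s of each tumour were ranked by reads, CASSQ made 18% ± 11.1 of the 10 largest, 11.3% ± 3.70 of ranks 11 to 100 and 7.86% ± 2.68 of those beyond rank 100 (SD, n = 44). The 10 largest exceeded the ranks beyond 100 by 10.1 percentage points, in 38 of 44 tumours (permutation test, adjusted p = 0.00021), and ranks 11 to 100 exceeded them by 3.43, in 35 of 44 (adjusted p = 0.00021). Within AC484 the first of these was 6.20 (adjusted p = 0.051) and the other 3.39 (adjusted p = 0.0021), by the same permutation test. The 10 largest exceeded ranks 11 to 100 by 11.5 percentage points in vehicle tumours (permutation test, adjusted p = 0.0015), with 6.00 for anti-PD-1 (adjusted p = 0.29) and 2.81 for AC484 (adjusted p = 0.35). In vehicle tumours CASSQ made 22.9% ± 7.26 of the 10 largest, with anti-PD-1 18% ± 13.7 and with AC484 13.3% ± 9.76. AC484 minus vehicle was -9.52 percentage points there (permutation test, adjusted p = 0.024), while at ranks 11 to 100 the difference was -0.83 (adjusted p = 0.64) and beyond rank 100 it was -1.71 (adjusted p = 0.29). The difference of anti-PD-1 from vehicle among the 10 largest was -4.86 (adjusted p = 0.34). The largest TRB clone of the tumour was a CASSQ CDR3 in 5 of 14 vehicle tumours, 5 of 15 anti-PD-1 tumours and 0 of 15 AC484 tumours. Vehicle tumours held as few as 108 distinct TRB CDR3s, so their ranks beyond 100 could be few. The ranking was added after the data were seen.

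**Figure D3:**
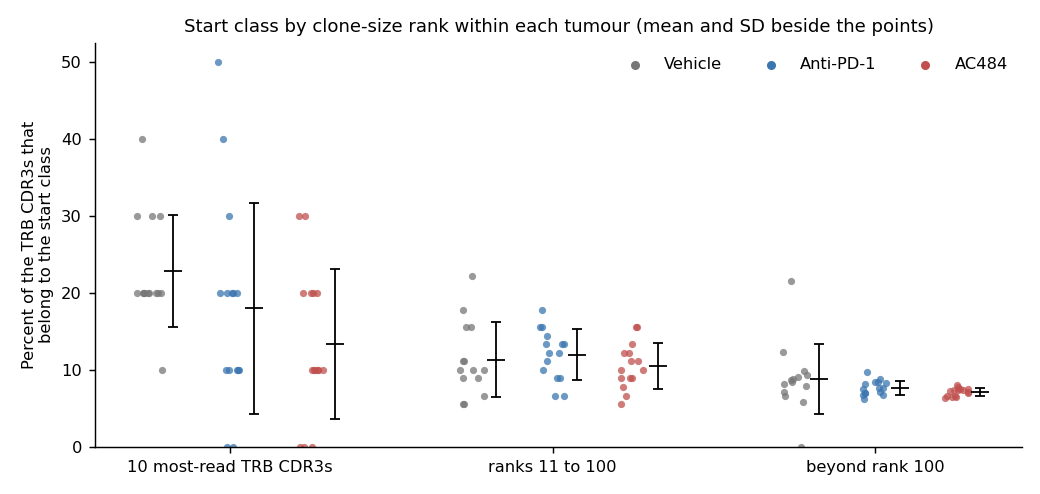
Each point is 1 tumour and gives the percent of its TRB CDR3s that start with CASSQ among its 10 largest, at ranks 11 to 100 and beyond rank 100, with the mean and SD beside the points of each group. The means of the 10 largest step from 22.9% in vehicle tumours to 18% with anti-PD-1 and 13.3% with AC484, while those at ranks 11 to 100 lie between 10.5% and 12.0%.

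Depth differed between the groups. TRB reads per tumour ran from 5060 to 188185 in vehicle tumours, from 58534 to 399662 with anti-PD-1 and from 32948 to 407156 with AC484, and 5 of 44 tumours had fewer than 20000. As deposited, a vehicle tumour held 12 to 119 distinct CASSQ CDR3s (median 49), an anti-PD-1 tumour 64 to 285 (median 159) and an AC484 tumour 145 to 615 (median 200). The lowest AC484 tumour thus lay above the highest vehicle tumour, before depth was taken into account. Libraries were prepared with 4 sets of index primers, and no set held both vehicle and AC484 tumours. Set 1 held 12 vehicle tumours, set 2 the other 2 vehicle tumours with 10 anti-PD-1 tumours, set 3 the other 5 anti-PD-1 tumours with 7 AC484 tumours and set 4 the other 8 AC484 tumours. A difference of AC484 from vehicle could be had within sets only as the sum of the steps from vehicle to anti-PD-1 in set 2 and from anti-PD-1 to AC484 in set 3, and it rested on 2 vehicle tumours.

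At an equal depth of 5060 TRB reads a vehicle tumour was expected to show 10.0 to 75.0 distinct CASSQ CDR3s (median 38.3), an anti-PD-1 tumour 37.7 to 73.8 (median 61.6) and an AC484 tumour 35.1 to 121 (median 62.2). The groups overlapped, and AC484 tumour 10 stood highest. The means were 36.1 ± 21.3, 57.9 ± 11.2 and 68.2 ± 19.9 (SD, n = 14, 15 and 15). AC484 exceeded vehicle by 32.1 CDR3s (95% interval 16.6 to 47.7, permutation test, adjusted p = 0.0053, 14 of 15 tumours above the vehicle median), and anti-PD-1 exceeded vehicle by 21.9 (adjusted p = 0.0092, 14 of 15). AC484 and anti-PD-1 differed by 10.2 (95% interval -1.51 to 22.2, adjusted p = 0.19), a difference that passed at 20000 reads without the shallower tumours (43.9, adjusted p = 0.009). Over all TRB CDR3s the means at the same depth were 374 distinct in vehicle tumours, 651 with anti-PD-1 and 854 with AC484. Within index sets AC484 minus vehicle was 28.2 CASSQ CDR3s (exact permutation p = 0.036), the sum of 7.59 in set 3 (exact permutation p = 0.4) and 20.7 in set 2 (exact permutation p = 0.03). After adjustment neither the sum (adjusted p = 0.12) nor the step in set 2 (adjusted p = 0.11) passed.

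As a share of that larger repertoire CASSQ was lower with AC484. It made 6.45% to 14.8% of the distinct TRB CDR3s of a vehicle tumour at equal depth (median 9.92%), 6.62% to 12.2% with anti-PD-1 (median 8.91%) and 6.94% to 9.49% with AC484 (median 8.03%). Every AC484 tumour lay below the vehicle median, and the ranges overlapped. The means were 9.95% ± 2.02, 9.12% ± 1.43 and 8.06% ± 0.928. AC484 was lower than vehicle by 1.89 percentage points, a difference of -1.89 with a 95% interval of -3.08 to -0.728 (permutation test, adjusted p = 0.0092). AC484 minus anti-PD-1 was -1.06 (adjusted p = 0.089) and anti-PD-1 minus vehicle -0.82 (adjusted p = 0.37). The call for AC484 against vehicle was lost with low counts left out (-1.26, permutation test, adjusted p = 0.16). That filter compares reads not scaled to depth, so it acted unequally on groups of unlike depth. Within index sets the difference was -4.20 (exact permutation p = 0.0017), the sum of -1.68 in set 3 (exact permutation p = 0.053) and -2.52 in set 2 (exact permutation p = 0.03).

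The reads of the class were lower with AC484 than with vehicle over all tumours, a difference that was not called within index sets. CASSQ held 5.68% to 39.7% of the TRB reads of a vehicle tumour (median 20.2%), 4.72% to 62.6% with anti-PD-1 (median 17.1%) and 2.72% to 20.8% with AC484 (median 8.24%). Vehicle tumour 12 and anti-PD-1 tumour 6 stood highest in their groups, and 14 of 15 AC484 tumours lay below the vehicle median. The means were 22.0% ± 10.5, 19.4% ± 14.9 and 10.8% ± 5.91, and AC484 differed from vehicle by -11.2 percentage points (95% interval -17.5 to -4.72, permutation test, adjusted p = 0.0086), to 0.491 of the vehicle mean. AC484 minus anti-PD-1 was -8.57 (adjusted p = 0.11), which came to -5.48 without anti-PD-1 tumour 6, and anti-PD-1 minus vehicle was -2.64 (adjusted p = 0.74), or -5.73 (adjusted p = 0.23) without that tumour. Within index sets AC484 minus vehicle was -1.57 (exact permutation p = 0.9), the sum of -6.27 in set 3 (exact permutation p = 0.2) and 4.70 in set 2 (exact permutation p = 0.68). The value in set 2 rested on anti-PD-1 tumour 6, without which it was -0.0132 (exact permutation p = 1) and the sum -6.28 (exact permutation p = 0.47). Without vehicle tumour 14 the sum was 3.10.

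The largest CASSQ CDR3 of a tumour was smaller with AC484 than with vehicle in the same way. It held 2.62% to 35.4% of TRB reads in vehicle tumours (median 9.77%), 1.03% to 60.4% with anti-PD-1 (median 5.31%) and 0.790% to 7.85% with AC484 (median 4.03%). The means were 13.1% ± 10.2, 10.5% ± 14.7 and 4.34% ± 2.52, and AC484 was below vehicle by a difference of -8.75 percentage points (95% interval -14.3 to -3.32, permutation test, adjusted p = 0.0053, 15 of 15 tumours below the vehicle median). AC484 minus anti-PD-1 was -6.12 (adjusted p = 0.16), or -2.56 without anti-PD-1 tumour 6. The largest CDR3 of other start classes was not measured. Within index sets AC484 minus vehicle was -1.41 (exact permutation p = 0.9), the sum of -6.01 in set 3 (exact permutation p = 0.051) and 4.59 in set 2 (exact permutation p = 0.71). Without anti-PD-1 tumour 6 the step in set 2 was -0.951 (exact permutation p = 0.71) and the sum -6.96 (exact permutation p = 0.093), and without vehicle tumour 14 the sum was 1.83. The number of CASSQ CDR3s with at least 1% of TRB reads was 2.64 ± 0.929, 2.67 ± 1.88 and 2.33 ± 1.84 per tumour, with no difference past the test (adjusted p from 0.74 to 1).

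**Figure D4:**
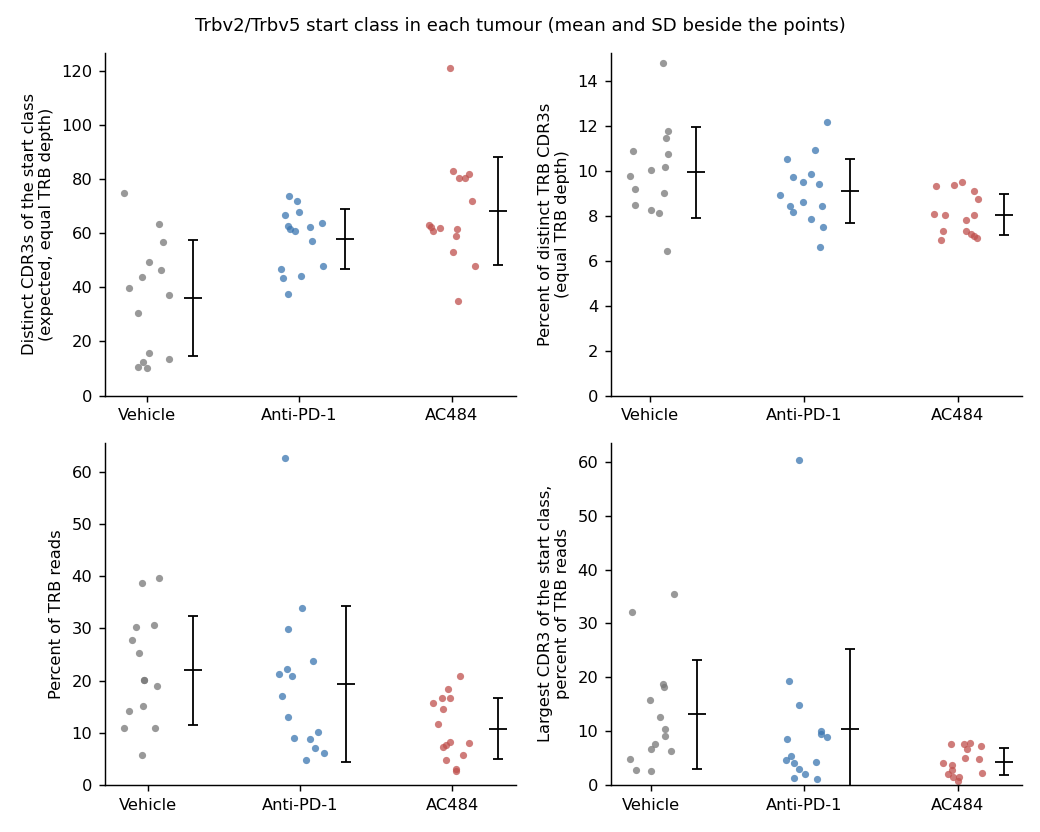
Each point is 1 tumour, grouped by treatment, for the measures of the start class named on the axes, with the mean and SD beside the points. AC484 tumours reach at most 20.8% of TRB reads and 7.85% for their largest CDR3, where vehicle tumours reach 39.7% and 35.4% and 1 anti-PD-1 tumour 62.6% and 60.4%.

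Numbers of distinct CDR3s from all reads, fitted over all 44 start classes with edgeR's quasi-likelihood test, gave CASSQ a log2 fold change of -0.27 (SE 0.0694, adjusted p = 0.007) for AC484 against vehicle. This was 1 of 3 classes called of 44 (6.82%). Against anti-PD-1 it was -0.11 (SE 0.0534, adjusted p = 0.18), in a comparison where 6.82% of the classes were called, and for anti-PD-1 against vehicle -0.16 (SE 0.0715, adjusted p = 0.29), where 0% were called. CASSL, the most frequent start, was higher with AC484 than with vehicle (0.18, SE 0.0601, adjusted p = 0.042), a call lost without normalization factors (0.11, adjusted p = 0.23), and CASSD was higher with AC484 than with anti-PD-1 (0.25, SE 0.0652, adjusted p = 0.009). CASG (0.04, adjusted p = 0.72) and CASSP (0.07, adjusted p = 0.72) did not pass against vehicle. The normalization factors moved the median of all classes to 0.11 for AC484 against vehicle, from 0.04 without them. CASSQ lay below the median either way. Its log2 fold change without factors was -0.35 (edgeR's quasi-likelihood test, adjusted p = 3.1e-05). The CASSQ call was lost without the filter on rare classes (-0.12, adjusted p = 0.78), without CDR3s of 1 read (-0.22, adjusted p = 0.13) and with low counts of shared CDR3s left out (-0.14, adjusted p = 0.43).

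No J pairing of CASSQ passed the test by treatment. Of the 12 CASSQ and Trbj combinations, edgeR's quasi-likelihood test called 0 for AC484 against vehicle, where 3.72% of 188 combinations of a start class and a J gene were called, 0 for AC484 against anti-PD-1 (1.06% called) and 0 for anti-PD-1 against vehicle (0% called). At an unadjusted p under 0.05 they numbered 2, 1 and 1, and DESeq2 also called 0 in each. For AC484 against vehicle the lowest was Trbj1-6 at -0.66 (SE 0.308, adjusted p = 0.18) and the highest Trbj2-3 at 0.25 (SE 0.206, adjusted p = 0.53), on the log2 scale. The factors put the median of all combinations at 0.24 and that of the 12 at -0.18, and without factors at 0.04 and -0.39, where 1 of the 12, Trbj2-1, was called lower. By share of the class Trbj1 genes ended 40.6% ± 9.10 of the distinct CASSQ CDR3s in vehicle tumours, 36.7% ± 4.10 with anti-PD-1 and 36.1% ± 2.80 with AC484, with no difference past the permutation test (adjusted p = 0.19 for AC484 against vehicle, 95% interval -9.49 to 0.548 percentage points).

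The few largest CASSQ clones are shown because each held a large share of the TRB reads of its tumour. Of 11 that held at least 10% of the TRB reads of a tumour, 8 were in vehicle tumours, 3 in anti-PD-1 tumours and 0 in AC484 tumours. The same count was not made for the other TRB CDR3s. On average 4.42% of these others held at least 1% of TRB reads in vehicle tumours, 0.691% with anti-PD-1 and 0.426% with AC484. Of the 11 CASSQ clones, those of at most 14 residues were as follows, with residues written from the first to the last.
Trbj2-1, anti-PD-1 tumour 6: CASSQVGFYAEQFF
Trbj2-7, anti-PD-1 tumour 11: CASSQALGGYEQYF
Trbj1-1, vehicle tumour 2: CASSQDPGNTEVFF
Trbj2-5, vehicle tumour 10: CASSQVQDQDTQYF
Trbj1-4, anti-PD-1 tumour 12: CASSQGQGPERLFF
Trbj2-1, vehicle tumour 3: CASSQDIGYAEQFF
Trbj2-5, vehicle tumour 10: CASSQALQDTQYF
The first held 60.4% of the TRB reads of its tumour, the next 19.3%, 18.2%, 15.7%, 14.8%, 10.4% and 10.4%. The other 4 were longer and all in vehicle tumours, a Trbj1-6 CDR3 of 15 residues with 35.4% in tumour 1, a Trbj1-1 CDR3 of 15 residues with 32% in tumour 12, a Trbj2-3 CDR3 of 15 residues with 18.8% in tumour 4 and a Trbj2-2 CDR3 of 16 residues with 12.7% in tumour 7. The clones used J genes of both clusters.

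These clones were also read in other tumours, mostly at low counts, and more often in those prepared with the same index set. Over the 11 clones 70 of 121 chances to be read in another tumour of the same set were met (57.9%), and 52 of 352 in other sets (14.8%). Of the 122 cases of a clone read in another tumour, 108 had under 1% of its count in the tumour listed for it. The clone of anti-PD-1 tumour 6 was read in 11 of 11 other tumours of its set, including both vehicle tumours there, in 0 of 5 anti-PD-1 tumours of the other set and in 5 of 32 tumours of other sets, at no more than 0.166% of TRB reads. Over all 11 clones, tumours of the same treatment in another set held the clone in 5 of 41 cases, and tumours of another treatment in the same set in 9 of 16. The exception to the order by set was the Trbj2-3 clone of vehicle tumour 4. It was read in 2 of 11 tumours of its set and in 22 of 32 others, with up to 8.82% elsewhere. Some of the other clones were also above 1% elsewhere. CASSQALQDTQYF had 1887 reads (6.39%) in vehicle tumour 6, against 527 in vehicle tumour 10. The Trbj1-1 clone of vehicle tumour 12 reached 7.00% elsewhere, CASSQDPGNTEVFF 3.02% and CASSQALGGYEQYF 1.10%. This count of chances was added after the data were seen. The sharing described next is given with and without low counts.

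**Figure D5:**
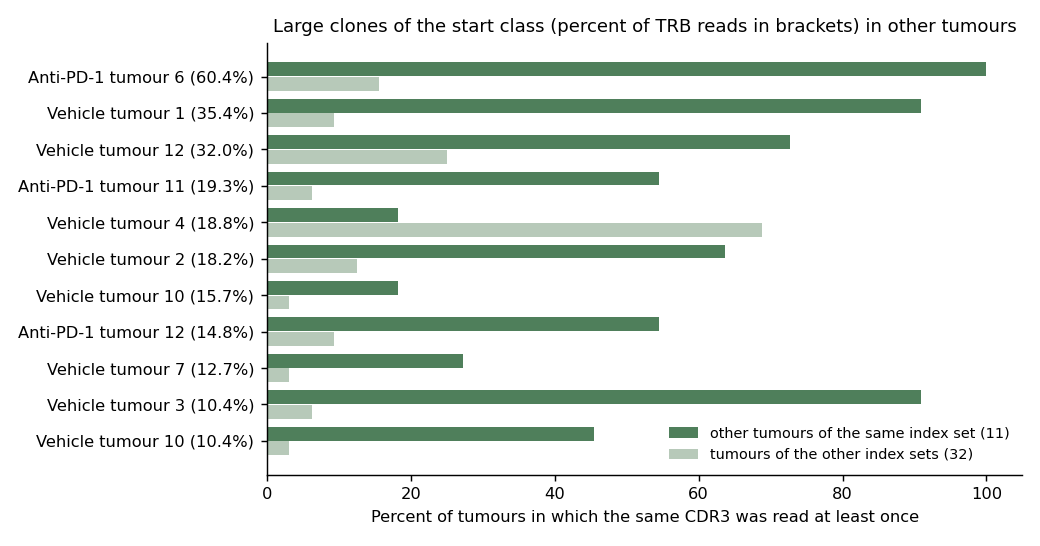
For each of the 11 CASSQ CDR3s with at least 10% of the TRB reads of a tumour, the bars give the percent of other tumours that held it, for tumours of the same index set and of other sets. Same-set bars exceed other-set bars for 10 of the 11 clones, and the Trbj2-3 clone of vehicle tumour 4 is the exception (18.2% against 68.8%).

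Few CASSQ CDR3s were widely found. Of the 5304, 4473 were read in 1 tumour (84.3%) and held 8.20% of the reads of the class. The 32 read in 10 or more tumours, of which 7 were in 20 or more, held 45.1% of the reads in the bin of 10 to 19 tumours and 12.5% in the bin of 20 or more. With low counts left out, 4581 (86.4%) were in 1 tumour and held 54.4% of the remaining reads, and 9 were in 10 or more tumours with 6.32%. Within a tumour 46% ± 14.2 of CASSQ CDR3s were also read in another tumour, against 40.2% ± 8.29 of the other TRB CDR3s (SD, n = 44, higher in 37 of 44, sign-flip permutation test, adjusted p = 0.0001). The difference of 5.77 percentage points came to 0.765 (adjusted p = 0.63) with the low counts left out.

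Pairs of vehicle tumours had more CASSQ CDR3s in common for their size than pairs of treated tumours. Per 10000 pairs of a CDR3 from one tumour and a CDR3 from another, 28.1 were identical within vehicle, 4.78 within anti-PD-1 and 2.13 within AC484. The other TRB CDR3s had the same order, with 1.07, 0.239 and 0.147. Only the order can be compared, since all CASSQ CDR3s share 1 start and the other TRB CDR3s mix many. In plain numbers a pair of vehicle tumours shared 4.46 CDR3s on average, a pair of anti-PD-1 tumours 10.5 and a pair of AC484 tumours 13.0. The scaled difference of AC484 from vehicle was -26.0 (permutation of tumour labels, adjusted p = 0.00015), of AC484 from anti-PD-1 -2.65 (adjusted p = 0.0005) and of anti-PD-1 from vehicle -23.3 (adjusted p = 0.00015). With low counts left out these were -2.91 (adjusted p = 0.0016), -0.93 (adjusted p = 0.0016) and -1.98 (adjusted p = 0.058), by the same permutation. With the 12 most-read CASSQ CDR3s of each tumour AC484 minus vehicle was 2.95 (adjusted p = 0.88) and anti-PD-1 minus vehicle 4.93 (adjusted p = 0.88), opposite in sign. At an equal TRB depth AC484 minus anti-PD-1 was -0.98 (adjusted p = 0.31), AC484 minus vehicle -16.1 and anti-PD-1 minus vehicle -15.1. Limited to pairs of tumours from different index sets, 15 were identical within vehicle, 3.54 within anti-PD-1 and 1.82 within AC484. AC484 minus vehicle was then -13.2 and anti-PD-1 minus vehicle -11.5 (permutation of tumour labels, adjusted p = 0.00015 for each). AC484 minus anti-PD-1 was -1.72 there (adjusted p = 0.0039, same permutation).

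Of the 32 CASSQ CDR3s found in 10 or more tumours, presence differed between AC484 and vehicle for 7 by Fisher's exact test, 3 of them found more often with AC484. This was 21.9% of the 32, against 29.9% of all 274 TRB CDR3s found in 10 or more tumours. Of the 82 called among the 274, 75 were found more often with AC484. Between AC484 and anti-PD-1 it differed for 1 (3.12%, against 1.46% of the 274), and between anti-PD-1 and vehicle for 6 (18.8%, against 6.57%). When a CDR3 counted as present only at or above the share of 1 read in the smallest library, each CASSQ count was 0. With low counts left out each was 0 as well. The calls among all 274 are not given for these settings, so the CASSQ counts of 0 cannot be set against them. A read anywhere counted as presence, depth was lowest in vehicle tumours, and treatment and index set cannot be told apart for most tumours.

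Several widely found CASSQ CDR3s went on with glutamate and glycine after the start. The examples were chosen after their values were seen and are shown to set them beside each other, and the Trbj2-7 pair belonged to the 5 CDR3s found in the most tumours.
Trbj2-7, 25 tumours: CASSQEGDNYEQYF
Trbj2-4, 20 tumours: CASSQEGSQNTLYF
Trbj1-1, 17 tumours: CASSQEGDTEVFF
Trbj2-7, 21 tumours: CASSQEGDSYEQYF
Trbj2-3, 14 tumours: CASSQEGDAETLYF
The Trbj2-7 CDR3 read in 25 tumours was in 7 of 14 vehicle, 9 of 15 anti-PD-1 and 9 of 15 AC484 tumours, with at most 1.5% of TRB reads (AC484 tumour 6). Its neighbour with serine in place of asparagine was in 2 vehicle, 12 anti-PD-1 and 7 AC484 tumours, with at most 0.00126%, 3.26% and 0.699% of TRB reads (Fisher's exact test, anti-PD-1 against vehicle, adjusted p = 0.021). The remaining 3 of the 5 most widely found had 15 residues. A Trbj2-3 CDR3 with valine at residue 6 was in 27 tumours (5 vehicle, 12 anti-PD-1, 10 AC484) and reached 2.62%, 4.63% and 4.80% of TRB reads in the respective groups. A Trbj2-3 CDR3 with glutamate there, the clone of vehicle tumour 4, was in 25 (5, 14 and 6) and reached 18.8%, 8.82% and 1.23% (Fisher's exact test, anti-PD-1 against vehicle, adjusted p = 0.036). A Trbj2-4 CDR3 with glutamate was in 24 (5, 7 and 12) and reached 5.01%, 0.292% and 3.29%. These 3 were thus above 1% of TRB reads in tumours of more than 1 treatment.

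Some of the CDR3s whose presence differed by treatment were above 1% of TRB reads in 1 tumour and others in several. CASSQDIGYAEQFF was read in 11 of 14 vehicle, 2 of 15 anti-PD-1 and 0 of 15 AC484 tumours (Fisher's exact test, AC484 against vehicle, adjusted p = 0.001), with 10.4% of TRB reads in vehicle tumour 3 and under 1% of that count in the other 12 tumours that held it. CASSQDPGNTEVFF was in 9, 2 and 1 (adjusted p = 0.019, Fisher's exact test), with 18.2% in vehicle tumour 2 and 3.02% in vehicle tumour 9. The Trbj1-6 CDR3 of vehicle tumour 1 was in 12, 1 and 1 (adjusted p = 0.001, Fisher's exact test), and the Trbj1-1 CDR3 of vehicle tumour 12 in 10, 5 and 2 (adjusted p = 0.02, Fisher's exact test). The former held 35.4% in its tumour and at most 0.12% elsewhere, and the latter 32% in its tumour, 7.00% in vehicle tumour 7 and 1.19% in vehicle tumour 5. The 3 read more often with AC484 than with vehicle were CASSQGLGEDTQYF (2, 4 and 10, adjusted p = 0.033 by Fisher's exact test), which reached 7.20% in an AC484 tumour, a Trbj1-1 CDR3 of 15 residues (0, 3 and 7, adjusted p = 0.027 by Fisher's exact test), which reached 9.93% in an anti-PD-1 tumour and at most 0.0154% with AC484, and a Trbj1-3 CDR3. The Trbj1-3 CDR3 had 15 residues with valine at residue 6 and was in 1 vehicle, 2 anti-PD-1 and 13 AC484 tumours (Fisher's exact test, adjusted p = 0.001 against vehicle and 0.04 against anti-PD-1). It held 4.03% of TRB reads in AC484 tumour 8 and 3.32% in anti-PD-1 tumour 14, and its median over AC484 tumours was 0.000942%, with 14 of the other 15 tumours under 1% of its largest count. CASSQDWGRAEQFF was in 1, 10 and 4 (anti-PD-1 against vehicle, Fisher's exact test, adjusted p = 0.036), with 6.98% in anti-PD-1 tumour 4. The CASSQ CDR3 with the highest mean share among AC484 tumours, a Trbj2-4 CDR3 of 15 residues, held 7.85% in AC484 tumour 10 and was read in 6 of 15 AC484, 1 of 15 anti-PD-1 and 0 of 14 vehicle tumours.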

How the data were processed

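TCR sequencing of 44 tumours was analysed. The authors amplified V(D)J regions from tumour RNA (SMARTer Mouse TCR a/b kit), ran 1 MiSeq flow cell and assembled amino acid clonotypes with MiXCR. The submitters' notes name mm10. The deposited values are raw read counts of each amino acid CDR3 in each tumour, both chains mixed, without V gene, nucleotides or molecular identifiers. TRB and the J gene were assigned from the CDR3 ending (12 endings), which left 6301600 of the reads. Counts are of reads, not of cells.

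Tumours were compared at 5060 TRB reads, the smallest total, by the closed form of drawing without replacement. Group means were compared by two-sided permutation (100000 resamples, smallest p 1e-05, exact where a set held under 10 tumours), 95% intervals by inverting the test, and Benjamini-Hochberg adjustment over 24 tests. Class and other CDR3s of a tumour were compared over 21 measures by sign-flip permutation. Usage was fitted with edgeR 4.0.16 on numbers of distinct CDR3s for features with at least 100, at an adjusted p under 0.05, with DESeq2 1.42.0 as an alternative. Sharing used 10000 permutations of tumour labels. The permutation test of group means, its intervals, the sign-flip test and the equal-depth step were tested on simulated data. Named CDR3s were the 5 found in the most tumours, the highest mean of each group, the 3 highest in any tumour and at most 5 public ones called per comparison, and others were named after their values were seen. Other deposited columns, such as clone fractions, were not used. The members, lists and tests were chosen with earlier results of these data known, and the measures by clone rank, by treatment within tumours and of large clones in other tumours were added after seeing the data. Alternatives were other depths, filters, normalizations, tests and sets of tumours. "Low counts left out" removes a count below 1% of the highest count its CDR3 reached in any tumour. The counts were not scaled to depth, which was lowest in vehicle tumours, so this filter acted unequally on the groups. For a Trbj2-4 CDR3 with a highest count of 6430, 10 reads in vehicle tumour 10 (0.198% of TRB reads) were removed. For the same CDR3, 89 reads in anti-PD-1 tumour 15 (0.128%) were kept. R 4.3.3 and Python 3.11.15 were used, the latter with SciPy 1.17.1, NumPy 2.4.6, matplotlib 3.10.9 and pandas 2.3.3.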

Additional observations from a re-analysis of the deposited data

Results flagged for a closer look

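The excess of CASSQ CDR3s over other TRB CDR3s of the same tumour in the share read in another tumour differed between treatments (permutation test, Benjamini-Hochberg over 30 tests). It was 12.8 ± 7.42 percentage points in vehicle tumours (SD, n = 14, higher in 14 of 14), 4.66 ± 4.26 with anti-PD-1 (n = 15, 13 of 15) and 0.328 ± 4.94 with AC484 (n = 15, 10 of 15). AC484 minus vehicle was -12.5 (adjusted p = 0.0012) and anti-PD-1 minus vehicle -8.15 (adjusted p = 0.013), while AC484 minus anti-PD-1 was -4.33 (adjusted p = 0.089). Large clones were read in other tumours of their own index set in 70 of 121 cases, and 12 of 14 vehicle tumours shared set 1, and the part of this in the difference was not tested.

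The excess in the share of CDR3s with at least 1% of TRB reads differed as well. It was 3.79 ± 3.58 percentage points in vehicle tumours, 1.25 ± 1.45 with anti-PD-1 and 0.645 ± 1.03 with AC484, and AC484 minus vehicle was -3.15 (permutation test, adjusted p = 0.013). Vehicle tumours held the fewest distinct TRB CDR3s, from 108 to 1383, and the part of this in the difference was not tested.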

How the results depend on the processing

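Of 404 combinations of a result and an alternative that left out no tumour, 327 kept their direction and side of the threshold, 40 lost the call, 7 gained one, 15 changed sign and 15 counts moved by over 1.5 times. Causes were not tested. Without equal depth AC484 minus anti-PD-1 was 115 distinct CASSQ CDR3s (adjusted p = 0.012) and -0.702 percentage points of distinct TRB CDR3s (0.046), and anti-PD-1 minus vehicle -1.69 points (0.012), all newly called. At 20000 reads the first were 43.9 and -0.898, both called, and D or E at residue 6 for AC484 minus vehicle turned to 2.01. Without CDR3s of 1 read, anti-PD-1 minus vehicle turned to -0.325 points for D or E and -0.0476 for CDR3s with at least 1% of reads. Without the 10 largest TRB CDR3s the share of distinct CDR3s, anti-PD-1 minus vehicle, was -1.42 and called. Within index sets distinct CASSQ CDR3s were 20.7 (anti-PD-1 minus vehicle) and 28.2 (AC484 minus vehicle), reads 4.7 and -1.57, the largest CDR3 4.59 and -1.41, and length -0.0293 and -0.0247 residues, none called after adjustment. Without anti-PD-1 tumour 6, a setting added later, these were 23.1 and 30.6 distinct CDR3s, and for AC484 minus vehicle -6.28 for reads and -6.96 for the largest CDR3, also not called. CDR3s with at least 1% of reads were 0.457 more with AC484 than anti-PD-1 and 0.757 more than vehicle there.

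With low counts left out the share of distinct CDR3s, AC484 minus vehicle, was -1.26 and not called, and D or E turned to 2.83. The excess found in another tumour was then 0.765, GQG turned to -0.0224, and 1 Trbj gene was used more and 0 less. Sharing for anti-PD-1 minus vehicle was -1.98 and CASSQ usage was -0.135 on the log2 scale. The number of public CASSQ CDR3s called was 0 in each comparison. That count was also 0 in each at the share of 1 read in the smallest library. With CASSQ then D or E, length for AC484 minus vehicle was 0.28 and called, CDR3s with at least 1% of reads for anti-PD-1 minus vehicle turned to -0.219, the excess of such CDR3s over other TRB was 1.62 and that of log2 reads over distinct 0.244, neither called, GQG turned to -1.95, and 1 Trbj gene was used less. Within vehicle tumours 1 Trbj gene was used more and 1 less, within anti-PD-1 1 more, and within AC484 1 more and 1 less. Within AC484 the excess found in another tumour was 0.328, that of CDR3s with at least 1% of reads 0.645 and that of log2 reads over distinct 0.391, none called. Sharing for AC484 minus anti-PD-1 was -0.979 at equal depth and -1.98 for the most-read CDR3s, where it turned to 2.95 for AC484 minus vehicle and 4.93 for anti-PD-1 minus vehicle. CASSQ usage for AC484 minus vehicle was -0.122 without the filter and -0.22 without CDR3s of 1 read, and 1 CASSQ and Trbj combination was lower without normalization factors.

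Replicate numbers did not pair the tumours. Deviations of same-numbered tumours had a median correlation of -0.206 for AC484 with vehicle, -0.306 for AC484 with anti-PD-1 and 0.226 for anti-PD-1 with vehicle. With the replicate number as a block the share of distinct CDR3s, AC484 minus vehicle, was -1.81 (adjusted p = 0.055), and that of reads -10.7 (adjusted p = 0.017).

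With each tumour left out in turn no called group difference lost its call. AC484 minus anti-PD-1 in the share of distinct CDR3s ran from -1.24 to -0.842 and passed without anti-PD-1 tumours 7 or 15. D or E for anti-PD-1 minus vehicle ran from -1.13 to 1.15. CDR3s with at least 1% of reads ran from -0.595 to 0.0476 for AC484 minus anti-PD-1 and from -0.357 to 0.143 for anti-PD-1 minus vehicle.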
